A study of Danio rerio with 12 samples.

Results

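The genes described here encode 10 proteins of mitochondrial fatty acid oxidation, measured in livers of zebrafish that were fed a diet with 0% or 25% maize. They are acsl1b, cpt2, acadl, acadm, hadh, hadhb, acaa2, etfa, etfb and etfdh, and they were chosen by gene symbol, after the platform annotation had been updated to current zebrafish names. The choice was made with earlier results of these data known. All 10 were on the table of deposited values, where they had 24 of 12275 probes and formed 10 of 6684 genes with a symbol. The fish were adult wild type zebrafish of the AB strain. Maize replaced wheat in the feed, so that the 0% maize diet held the wheat that the 25% maize diet lacked, and all fish also received live Artemia nauplii daily for the 28 days of the trial. Tanks held 10 males and 10 females, and the livers of each sex of a tank were pooled, so that a value describes a pool and not a fish. The labels name 12 pools, 3 each of females on 0% maize (replicates 1, 2 and 3), females on 25% maize (2, 3 and 4), males on 0% maize (1, 3 and 4) and males on 25% maize (1, 2 and 3).

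Fatty acids are oxidised in the mitochondria of the liver in repeated rounds that each shorten the chain and release acetyl-CoA. A fatty acid is first joined to coenzyme A by an acyl-CoA synthetase, crosses the inner membrane as a carnitine ester and is returned to coenzyme A in the matrix. Acyl-CoA dehydrogenases, a hydratase, a hydroxyacyl-CoA dehydrogenase and a thiolase then act in turn. The electrons of the first of these steps leave through the electron transfer flavoprotein and its oxidoreductase to ubiquinone, a route that is shared with the breakdown of several amino acids and of choline. In mammals these genes are controlled by the PPAR nuclear receptors and respond to feeding and fasting.

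The measurement was the ratio of 2 dyes on 12 arrays, arranged in a closed loop in which a pool carried each dye on 1 array. No value was missing from the deposited log ratios, whose array medians ran from -0.046 to 0.038. Neither their base nor their direction is stated in any source used here. They were read as log2, the convention of limma, and as Cy5 over Cy3, which is called likely because all 470 values of 47 probes for vitellogenins, the yolk precursors made by female liver, had the required sign on the 10 arrays that held both sexes. A ratio gives no absolute level, so the defining markers of liver could be compared between pools but not checked for presence. Levels below are log2 values relative to the mean of the 12 pools, solved from the loop, and levels of different genes are not comparable. Differences, their standard errors (SE) and p-values came from limma over all 6684 genes with Benjamini-Hochberg adjustment, and a gene was called at an adjusted p under 0.05. Pools of 1 group came from separate tanks, and males and females with the same number and diet shared a tank.

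The loop did not measure all comparisons equally well. Of its 12 arrays, 10 joined a female pool to a male pool on the other diet, and only 1 array joined 2 female pools and 1 joined 2 male pools. Relative to the error of 1 array, the SE was 1.13 for the diet difference averaged over the sexes and 1.15 for the sex difference averaged over the diets, but 1.85 for the diet difference in 1 sex and 2.93 for the difference between those. From the other 10 arrays alone, no diet difference in 1 sex and no sex difference on 1 diet could be estimated. Every value below for 1 sex or for 1 diet therefore depends on these 2 arrays, each of 1 pair of pools.

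**Figure D1:**
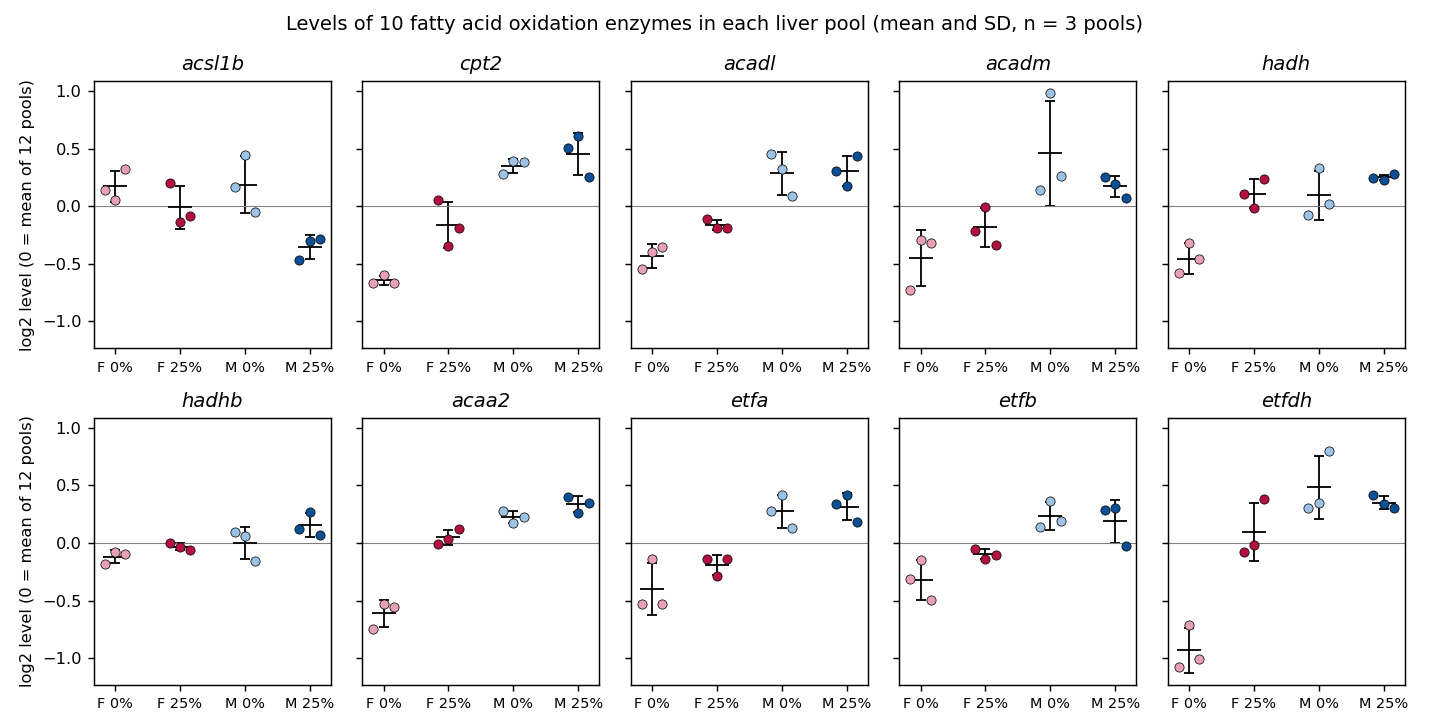
Level of each of the 10 genes (vertical axis, log2, 0 is the mean of the 12 pools) in each pool, with F for females, M for males and the percent of maize on the horizontal axis. Points are pools, and bars give the mean and SD of 3 pools. The lowest pool of each of 9 genes, all but acsl1b, is a female pool on 0% maize, and the 3 lowest of acsl1b are males on 25% maize.

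Activation is the step of acsl1b, a long-chain acyl-CoA synthetase. Its levels in females were 0.14, 0.058 and 0.32 on 0% maize and 0.20, -0.14 and -0.089 on 25% maize. In males they were 0.16, 0.45 and -0.048 on 0% maize and -0.47, -0.30 and -0.29 on 25% maize. All 3 male pools on 25% maize lay below the 3 on 0% maize, while the female pools of the diets overlapped. Averaged over the sexes, acsl1b was lower on 25% maize by a factor of 1.28 (log2 difference -0.36, SE 0.089, adjusted p = 0.0444 by limma), and it was the only 1 of the 10 genes called lower, against 2.56% of all genes. The separate differences were -0.20 (SE 0.15) in females and -0.52 (SE 0.15, adjusted p = 0.182) in males, and neither was called. A single probe measured acsl1b, and over all probes its adjusted p was 0.0512.

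Entry into the matrix is completed by cpt2, the inner-membrane carnitine palmitoyltransferase. The females had levels of -0.67, -0.60 and -0.67 on 0% maize and of 0.052, -0.35 and -0.19 on 25% maize. The males had 0.28, 0.39 and 0.38 on 0% maize and 0.51, 0.61 and 0.25 on 25% maize. Female pools of the diets did not overlap, male pools did, and every female pool lay below every male pool. The diet difference averaged over the sexes was 0.29 (SE 0.082) and missed the threshold (adjusted p = 0.068 by limma), as did the difference of 0.50 (SE 0.13, adjusted p = 0.094) in females. In males the difference was 0.083 (SE 0.13), with a 95% interval from -0.21 to 0.38.

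The first oxidation in the matrix is represented by acadl and acadm, the acyl-CoA dehydrogenases of long and of medium chains. Levels of acadl were -0.55, -0.39 and -0.35 in females on 0% maize, -0.11, -0.19 and -0.19 in females on 25% maize, 0.45, 0.32 and 0.086 in males on 0% maize and 0.30, 0.17 and 0.44 in males on 25% maize. Those of acadm were -0.73, -0.29 and -0.32, then -0.21, -0.0047 and -0.34, then 0.14, 0.98 and 0.26, and last 0.25, 0.19 and 0.068, in the same order of groups. The acadl pools of females did not overlap between the diets, those of acadm did, and male replicate 3 on 0% maize stood far above all other pools for acadm. Neither gene was called for diet. The difference averaged over the sexes was 0.14 (SE 0.071, adjusted p = 0.359) for acadl and -0.012 (SE 0.14, adjusted p = 0.986) for acadm, whose 95% interval ran from -0.31 to 0.28. The 2 probes of acadl gave 0.0018 and 0.28, and the 4 of acadm ranged from -0.17 to 0.13. Of these 4, 2 were assigned to acadm by symbol and not by accession.

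The second oxidation is catalysed by hadh, the hydroxyacyl-CoA dehydrogenase of shorter chains. Its levels were -0.58, -0.32 and -0.46 in females on 0% maize and 0.11, -0.017 and 0.24 in females on 25% maize. In males they were -0.074, 0.34 and 0.021 on 0% maize and 0.25, 0.23 and 0.28 on 25% maize. The female groups did not overlap, and the male groups did, with male replicate 3 on 0% maize above the rest. Averaged over the sexes, hadh rose 1.28-fold on 25% maize (log2 difference 0.36, SE 0.083, adjusted p = 0.0346 by limma). Its difference was 0.57 (SE 0.14, adjusted p = 0.0661) in females and 0.15 (SE 0.14, adjusted p = 0.789) in males. Of its 3 probes, which gave 0.24 to 0.45, 1 passed by itself.

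For long chains this step and the next are carried out by the trifunctional protein, whose beta subunit, a thiolase, is encoded by hadhb. This gene varied least of the 10. Its levels ran from -0.18 to -0.081 in females on 0% maize, from -0.06 to 0.0016 in females on 25% maize, from -0.16 to 0.094 in males on 0% maize and from 0.071 to 0.27 in males on 25% maize. The female pools of the diets did not overlap, but the difference between them was small, at 0.11 (SE 0.10), and it was 0.14 (SE 0.10) in males. The average over the sexes, 0.12 (SE 0.063), was not called (adjusted p = 0.377), and the 2 probes gave -0.0062 and 0.25.

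The round ends with acaa2, the thiolase of the matrix that releases acetyl-CoA. Levels of acaa2 were -0.75, -0.53 and -0.55 in females on 0% maize and -0.012, 0.037 and 0.12 in females on 25% maize. They were 0.28, 0.17 and 0.22 in males on 0% maize and 0.40, 0.26 and 0.35 in males on 25% maize. The 3 females on 0% maize were far below all other pools, and the males of both diets lay close together with overlapping values. In females acaa2 rose 1.60-fold on 25% maize (log2 difference 0.68, SE 0.10, adjusted p = 0.0164 by limma). The male difference was 0.092 (SE 0.10, adjusted p = 0.848), with a 95% interval from -0.13 to 0.31. Averaged over the sexes, acaa2 rose 1.31-fold (0.39, SE 0.061, adjusted p = 0.00744), the smallest adjusted p of the 10 genes for diet. Its 4 probes were all positive in this average, from 0.21 to 0.59, and 2 of them passed singly. In females the 4 probes differed more, from 0.37 to 1.14, and 2 passed singly.

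Electrons from the acyl-CoA dehydrogenases pass to the electron transfer flavoprotein, a dimer of the products of etfa and etfb. In females etfa had levels of -0.53, -0.14 and -0.53 on 0% maize and -0.14, -0.29 and -0.14 on 25% maize, and etfb had -0.31, -0.15 and -0.49 and then -0.056, -0.14 and -0.10. In males the levels of etfa were 0.28, 0.42 and 0.13 on 0% maize and 0.34, 0.42 and 0.18 on 25% maize, and those of etfb were 0.14, 0.37 and 0.19 and then 0.28, 0.30 and -0.026. Female replicate 2 on 0% maize lay within the range of the 25% maize females for etfa and just below it for etfb. Across the 12 pools the levels of both subunits were closely parallel (r = 0.95), the highest correlation among the 10 genes. After the mean of each sex was removed, r was 0.85 and no longer the highest. It was then 0.89 for acaa2 with etfdh and 0.86 for hadh with acaa2. The diet difference averaged over the sexes was 0.13 (SE 0.085, adjusted p = 0.553) for etfa and 0.088 (SE 0.079, adjusted p = 0.7) for etfb. In females it was 0.25 (SE 0.14) and 0.23 (SE 0.13), in males 0.0036 (SE 0.14) and -0.059 (SE 0.13), and none of these was called.

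The oxidoreductase that hands these electrons to ubiquinone, etfdh, had the largest diet difference. Females on 0% maize had levels of -1.07, -0.71 and -1.01, and females on 25% maize had -0.081, -0.017 and 0.39. Males had 0.31, 0.35 and 0.80 on 0% maize and 0.41, 0.33 and 0.30 on 25% maize. The females on 0% maize lay below every other pool, and female replicate 4 on 25% maize reached the levels of the males. In females etfdh rose 2.09-fold on 25% maize (log2 difference 1.06, SE 0.17, adjusted p = 0.0199 by limma), and in males the difference was -0.17 (SE 0.17, adjusted p = 0.815). Averaged over the sexes it rose 1.36-fold (0.45, SE 0.10, adjusted p = 0.0339). It was measured by 1 probe.

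Thus 3 of the 10 genes, hadh, acaa2 and etfdh, were called higher on 25% maize when the sexes were averaged, against 2% of all genes. Of the 10 differences, 8 were positive, against 47.6% of all. The 10 genes were chosen with earlier results of these data known, so these shares describe them and are no test of the set. In females acaa2 and etfdh were called higher, against 0.972% of all genes, and none was called lower, against 0.359%, also at an unadjusted p under 0.05. The median difference in females was 0.26 for the 10 genes and -0.015 for all genes. Levels of the females on 25% maize lay wholly above those on 0% maize for 7 of the 10 (cpt2, acadl, hadh, hadhb, acaa2, etfb and etfdh), as they did for 11.8% of all genes. In males none of the 10 was called by limma, against 0.0299% of all genes, and 1 of the 10, acsl1b, passed at an unadjusted p under 0.05, as did 11.2% of all genes. The median difference in males was 0.008 for the 10 genes, and acsl1b alone had all pools on 25% maize below all pools on 0% maize, as had 10.6% of all genes.

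**Figure D2:**
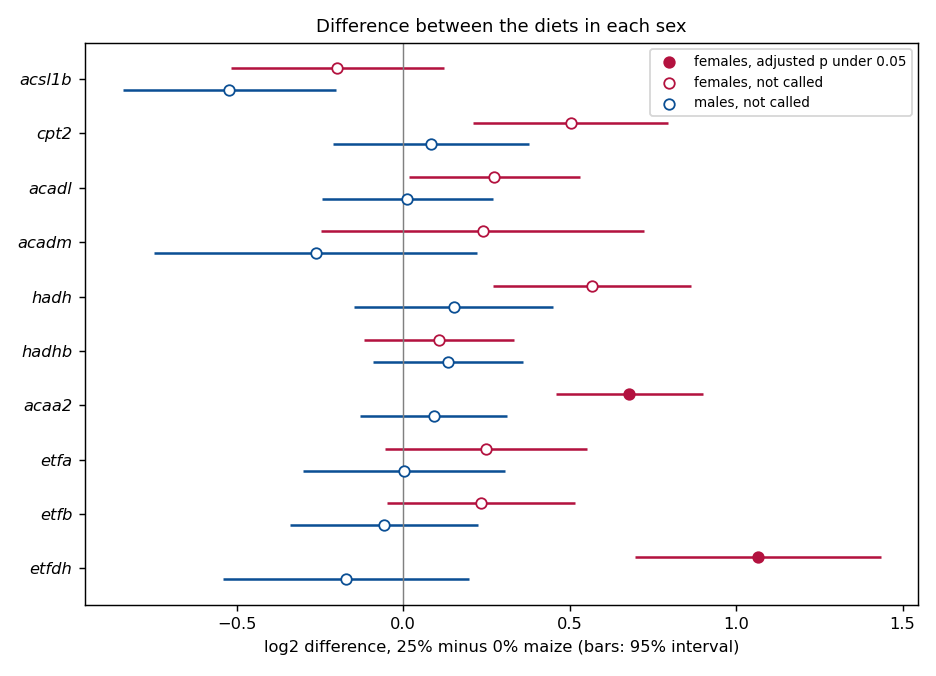
Difference between 25% and 0% maize (horizontal axis, log2) for each gene in females and in males, with bars for 95% intervals and filled points for an adjusted p under 0.05. In females 9 of 10 points are positive, against 47.4% of all genes, and etfdh lies farthest at 1.06. In males acsl1b lies farthest at -0.52.

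The test of the difference between the sexes itself called 0 of 6684 genes (0%), while 627 genes (9.38%), 2 of the 10 among them, passed at an unadjusted p under 0.05. The difference of the diet effects, female minus male, was 1.24 for etfdh (SE 0.27, adjusted p = 0.191 by limma, 95% interval 0.65 to 1.82) and 0.59 for acaa2 (SE 0.16, adjusted p = 0.236, 95% interval 0.24 to 0.94). The other 8 values ran from -0.027 for hadhb to 0.50 for acadm, with adjusted p from 0.576 to 0.974. A call in females with none in males was thus not shown to be a difference between the sexes. The 2 arrays that held pools of 1 sex compare the diets directly, each in 1 pair of pools. Both carried the 25% maize pool in Cy5, so these ratios also hold any dye difference, which the fit removes with its own term. The estimates above already lean on these arrays, so the ratios are no separate evidence. On the female array, replicate 4 on 25% maize over replicate 1 on 0% maize, the log ratio was 1.55 for etfdh, 0.86 for acaa2, 0.79 for hadh and 0.51 for cpt2, and -0.17 for acsl1b. On the male array, replicate 3 on 25% maize over replicate 1 on 0% maize, it was -0.40 for acsl1b and 0.32 for hadh and lay between -0.16 and 0.083 for the other 8.

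Each call for diet was checked with 1 pool, and with it 2 arrays, left out. For the average over the sexes, 78 to 495 of all 6684 genes were called in these 12 cases, against 305 with all pools. The difference of acaa2 averaged over the sexes stayed between 0.35 and 0.41 and was called in 11 of 12 cases, with the exception of female replicate 4 on 25% maize (adjusted p = 0.0568). That of etfdh stayed between 0.36 and 0.51 but was called in 4 of 12 cases, and the call was lost without replicates 1 or 3 of the females on 0% maize, 2 or 4 of the females on 25% maize, 1 or 3 of the males on 0% maize and 1 or 3 of the males on 25% maize (adjusted p = 0.0736 to 0.157). That of hadh, 0.31 to 0.42, was called in 2 cases, without replicate 2 of the females or 3 of the males on 0% maize, and was lost without any other pool (adjusted p = 0.0552 to 0.183). That of acsl1b, -0.41 to -0.30, was called in 3 cases, without replicate 2 of the females on 0% maize, 3 of the females on 25% maize or 2 of the males on 25% maize, and was lost without any other (adjusted p = 0.0505 to 0.195). In females the calls of acaa2 and etfdh both stood in the same 5 of 12 cases and were lost without replicates 1 or 3 of the females on 0% maize, 2 or 4 of the females on 25% maize, 1 of the males on 0% maize and 1 or 3 of the males on 25% maize. In these 7 cases 0 to 7 of all 6684 genes were called in females, against 89 with all pools. Without female replicate 1 on 0% maize or replicate 4 on 25% maize, which removes the array of 2 female pools, the female difference of etfdh was 0.66 and 0.67 in place of 1.06, with an adjusted p of 0.987 and 0.994. The female difference of acaa2 remained between 0.58 and 0.79 in all 12 cases. With every array scaled to the same spread, 0 of all 6684 genes were called for the average over the sexes. The differences were then -0.36 for acsl1b, 0.38 for hadh, 0.37 for acaa2 and 0.44 for etfdh (adjusted p = 0.16 to 0.258), and with the median of its probes hadh was not (adjusted p = 0.153).

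**Figure D3:**
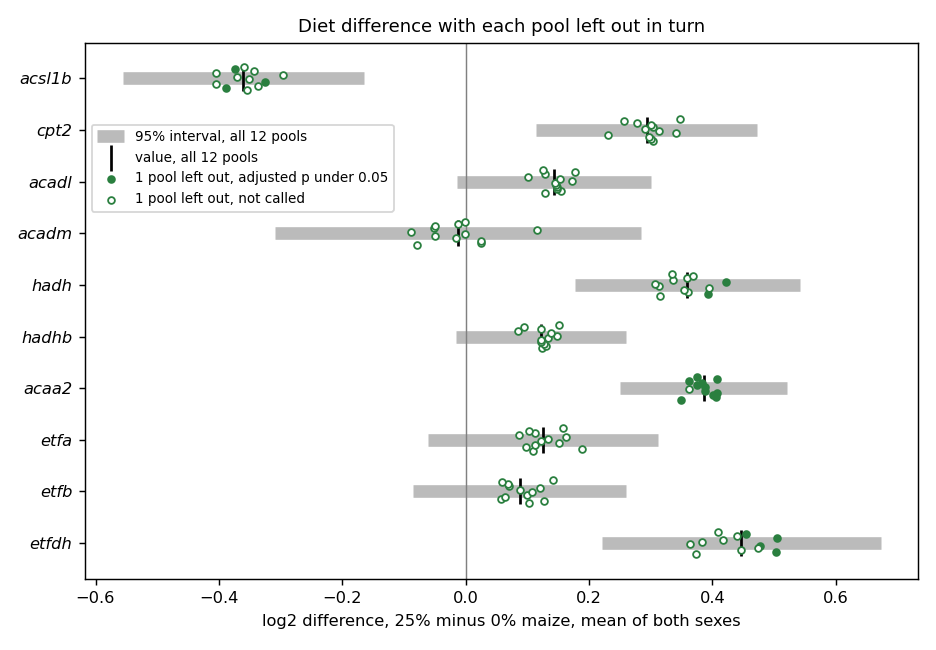
Diet difference averaged over the sexes (horizontal axis, log2, 25% minus 0% maize) for each gene. The grey bar is the 95% interval and the tick the value from all 12 pools, and each small point is the value with 1 pool left out, filled where the adjusted p was under 0.05. The 12 values of acaa2 lie between 0.35 and 0.41 and 11 of them are filled.

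Averaged over the diets, 8 of 10 were called lower in females, against 31.9% of all genes, and none was called higher, against 38.2%. The median difference, female minus male, was -0.57 for the 10 genes and 0.051 for all genes. For cpt2, acadl, acadm, acaa2, etfa and etfb, 6 of the 10, each of the 6 female pools lay below each of the 6 male pools, as was the case for 16.4% of all genes. In this bulk RNA, fewer cells of a type and less RNA of these genes per cell cannot be told apart.

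In pathway order, acsl1b differed by 0.18 between females and males (SE 0.091, adjusted p = 0.091 by limma) and was not called. Females had 1.75-fold less cpt2 (-0.81, SE 0.083, adjusted p = 1.15e-05), 1.49-fold less acadl (-0.57, SE 0.073, adjusted p = 4.64e-05) and 1.54-fold less acadm (-0.63, SE 0.14, adjusted p = 0.00184). For hadh they had 1.27-fold less (-0.35, SE 0.085, adjusted p = 0.00353), and hadhb, at -0.14 (SE 0.064), was not called (adjusted p = 0.0651). The thiolase acaa2 was lower 1.47-fold (-0.56, SE 0.063, adjusted p = 2.02e-05). Of the electron carriers, etfa was lower 1.50-fold (-0.59, SE 0.086, adjusted p = 0.000122), etfb 1.35-fold (-0.43, SE 0.08, adjusted p = 0.000618) and etfdh 1.81-fold (-0.86, SE 0.10, adjusted p = 3.63e-05), the largest sex difference of the 10. All 8 calls stood with each pool left out in turn, and that of hadh was lost with arrays scaled to the same spread (adjusted p = 0.13).

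On 0% maize alone the same 8 genes were called lower in females, against 25.9% of all genes, with differences from -0.55 for hadh to -1.48 for etfdh (SE 0.17, a factor of 2.78). The second largest was that of cpt2 at -1.02 (SE 0.13). On 25% maize 3 were called lower, against 17% of all genes, namely cpt2 (-0.60, SE 0.13, adjusted p = 0.00606), acadl (-0.44, SE 0.12, adjusted p = 0.013) and etfa (-0.47, SE 0.14, adjusted p = 0.0215). Singly, 2 of 2 probes of cpt2, 1 of 2 of acadl and 1 of 3 of etfa passed on 25% maize. The difference of etfdh was then -0.24 (SE 0.17, adjusted p = 0.272 by limma), and acaa2 at -0.27 (SE 0.10, adjusted p = 0.0558) just missed the threshold. The 4 probes of acaa2 gave -0.42 to 0, and 2 of them passed singly. The sex differences on the 2 diets differ by the same quantity as the diet differences in the 2 sexes, for which no gene was called. With pools left out, between 3 and 8 genes were called on 0% maize, fewer than 8 without female replicate 1 (6) or male replicate 1 (5) on 0% maize and without female replicate 4 (6) or male replicate 3 (3) on 25% maize. In these cases the share of all genes called in either direction was 15% to 27.5%, against 57.2% with all pools. On 25% maize between 0 and 5 were called. All 3 calls there were lost without female replicate 1 or male replicate 1 on 0% maize and without female replicate 4 or male replicate 1 or 3 on 25% maize. In these cases 3.22% to 12.2% of all genes were called in either direction, against 40.9% with all pools. Without female replicate 2 on 25% maize 1 gene was called (19.4% of all genes), without male replicate 3 on 0% maize 4 (37%), and without female replicate 2 on 0% maize 5 (49.4%).

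**Figure D4:**
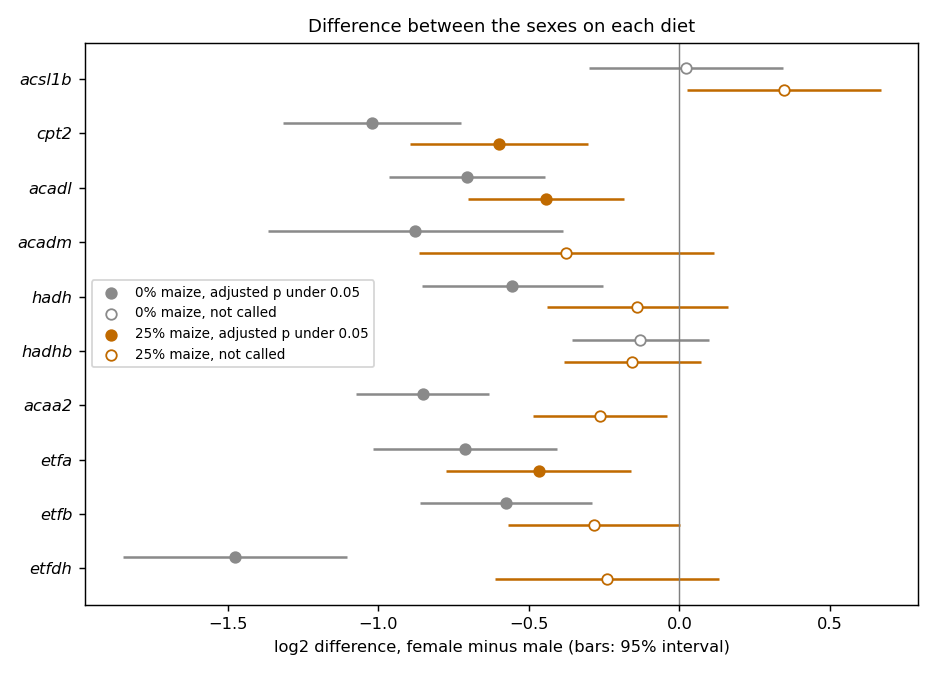
Difference between females and males (horizontal axis, log2, female minus male) for each gene on each diet, with bars for 95% intervals and filled points for an adjusted p under 0.05. On 0% maize 8 genes are filled, all to the left of 0, with etfdh at -1.48, and on 25% maize 3 are filled.

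The authors state that the liver samples also held pancreatic cells. Markers of hepatocytes and of other cell types also differed between the sexes. Of 14 measured hepatocyte markers, such as fabp10a and apoa2, 12 were lower and 1 was higher in females, with a median of -1.49. All 13 exocrine pancreas markers were lower (median -1.49), as were all 7 erythrocyte markers (-1.64) and all 7 intestine markers (-1.57), and all 16 ovary and oocyte markers were higher (3.06). Of all genes, 31.9% were called lower and 38.2% higher in females, for comparison with these and the later lists. The part of these markers in the sex differences of the 10 genes was not tested. Ratios give no zero level for any marker.

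Between the diets in females, limma called none of the hepatocyte, exocrine pancreas, erythrocyte, intestine or ovary markers and none of the vitellogenins. For the counts of signs below, 47.4% of all genes had a positive difference in females and 49.7% in males. At an unadjusted p under 0.05, 3 of 14 hepatocyte, 1 of 13 exocrine pancreas and 3 of 7 intestine markers were higher. Lower at that level were 3 of 16 ovary markers and 2 of 6 vitellogenins. In either direction, 15.5% of all genes passed at that level. The mean level of the hepatocyte markers was -0.88 to -0.64 in females on 0% maize and -0.63 to -0.52 in females on 25% maize, without overlap, and 0.57 to 0.94 and 0.60 to 0.66 in the males. That of the 13 exocrine pancreas markers was -1.06 to -0.79 and -0.80 to -0.034 in females, and all 13 differences were positive in females, with a median of 0.41. The 16 ovary and oocyte markers had mean levels of 1.01 to 2.29 and of 1.18 to 1.67, which overlapped, and all 16 differences were negative, with a median of -0.57. The 7 intestine markers had mean levels of -1.60 to -0.83 and of -1.15 to 0.029 in females, and of 1.02 to 1.43 and of 0.22 to 1.16 in males. Their median diet difference was 0.75 in females, with 6 of 7 positive, and -0.78 in males, with 0 of 7 positive. The 5 endocrine pancreas markers went from -1.43 to -0.19 on 0% maize and from -1.14 to 1.13 on 25% maize in females, with all 5 differences positive in each sex. The 6 vitellogenins had mean levels of 2.57 to 3.14 in females on 0% maize and of 2.28 to 2.36 in females on 25% maize, without overlap. Averaged over the sexes, the hepatocyte marker rbp4, a plasma carrier of retinol, was called higher on 25% maize (0.83, adjusted p = 0.0166 by limma), as the only marker of these lists. For comparison, the mean level of the 10 genes was -0.52 to -0.32 in females on 0% maize, -0.11 to -0.024 in females on 25% maize, 0.19 to 0.38 in males on 0% maize and 0.16 to 0.25 in males on 25% maize. Whether the rise of acaa2 and etfdh in females was bound to these marker levels was not tested.

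Of the other enzymes of mitochondrial beta-oxidation, 11 of 13 listed were measured. All 11 differences between the diets averaged over the sexes were positive, against 47.6% of all genes, with a median of 0.17. Only acadvl, the dehydrogenase of very long chains, was called (0.33, SE 0.081, adjusted p = 0.0428 by limma). In females eci1, an enoyl-CoA isomerase for unsaturated chains, was called (0.52, adjusted p = 0.0395 by limma). There 10 of 11 differences were positive, against 47.4% of all genes, with a median of 0.39, while in males 5 of 11 were positive, against 49.7%. The mean level of these 11 genes was -0.48 to -0.32 in females on 0% maize, -0.083 to -0.028 in females on 25% maize, 0.21 to 0.25 in males on 0% maize and 0.19 to 0.26 in males on 25% maize, close to the levels of the 10 genes above. By sex, 9 of the 11 were lower in females and none was higher, against 31.9% and 38.2% of all genes. The enoyl-CoA hydratase echs1 was lowest at -0.86 (SE 0.09), followed by decr1 (-0.66), acad11 (-0.62), hadhaa, the alpha subunit of the trifunctional protein (-0.59), and acad9 (-0.55).

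In the carnitine system, 7 of 14 listed genes were measured. Carnitine acetyltransferase crata (0.44, SE 0.079, adjusted p = 0.0103 by limma) and carnitine octanoyltransferase crot (0.45, SE 0.095, adjusted p = 0.0229), which handle short chains and the products of peroxisomes, were called higher on 25% maize averaged over the sexes. No gene of the system was called in either sex alone. Of the 7, 5 were lower in females, with cpt1b farthest (-1.86), and 1, cratb, was higher (0.28). Of the listed cpt1 genes only cpt1b was measured, and cpt1aa, cpt1ab and cpt1cb were not. The transporter slc25a20, which carries acylcarnitines through the inner membrane between the cpt1 and cpt2 steps, showed no call for diet (0.099) or for sex (-0.059). Among 11 other activation and uptake genes none was called for diet averaged over the sexes. At an unadjusted p under 0.05 there were 3, against 16.9% of all genes in either direction. Of these 3, 1 was higher and 2 were lower on 25% maize. The duplicate of acsl1b, acsl1a, differed by 0.069 between the diets (adjusted p = 0.776 by limma) where acsl1b differed by -0.36. By sex, 9 of the 11 were lower in females and 1 was higher. The lower ones included acsl1a (-0.29, adjusted p = 0.00651), acsf2 (-1.14), slc27a6 (-1.18), slc27a2a (-0.95) and acsbg2 (-0.50), and the higher one was acsl4a (0.60).

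Other dehydrogenases that pass electrons to the flavoprotein were measured for 6 of 10 listed genes. Dimethylglycine dehydrogenase dmgdh, of choline breakdown, was called higher on 25% maize (0.60, SE 0.11, adjusted p = 0.0106 by limma), and the other 5, which act on amino acids, were not called. All 6 were lower in females, from -1.12 for gcdha to -0.36 for acadsb. Of 3 genes that supply the cofactor FAD, slc25a32a, whose human counterpart carries folate or FAD into mitochondria, was called higher on 25% maize averaged over the sexes (2.07, SE 0.25, adjusted p = 0.00334) and in females (2.65, adjusted p = 0.0168). Its duplicate slc25a32b (-0.0057) and the FAD synthase flad1 (-0.078) were not.

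Peroxisomal oxidation, which shortens very long and branched chains, had 11 of 18 listed genes measured. Higher on 25% maize averaged over the sexes were hacl1 (0.43, SE 0.076, adjusted p = 0.0102 by limma) and acbd5a (0.51, SE 0.099, adjusted p = 0.0155), and in females ehhadh was called (0.84, adjusted p = 0.034). By sex, 10 of 11 were lower in females, with ehhadh (-1.09) and acaa1 (-0.90) farthest. Of 6 ketone body genes, bdh2 was higher on 25% maize (0.30, adjusted p = 0.0226), and by sex 3 were lower and 1 higher in females. None of the 8 measured regulators, among them pparaa, which encodes a PPAR alpha receptor, was called for diet averaged over the sexes. At an unadjusted p under 0.05 there were 3, all higher on 25% maize, against 16.9% of all genes in either direction. All 8 were lower in females, against 31.9% of all genes, pparaa by -0.88 (adjusted p = 0.000216 by limma). Of 6 other PPAR targets and 4 genes of lipases and lipid droplets none was called for diet either. At an unadjusted p under 0.05 there were 4 and 1, against the same 16.9% of all genes. Of these 4 PPAR targets, 1 was higher and 3 were lower on 25% maize, and the lipase or lipid droplet gene was higher. By sex, 4 of the 6 PPAR targets were lower and 1 was higher in females, with ucp1 (-1.99) farthest. For the 4 genes of lipases and lipid droplets these counts were 3 and 1, with lipg (3.43) farthest.

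Averaged over the sexes or over the diets, the pathways that receive the products had smaller median differences. In the tricarboxylic acid cycle, 0 of 17 genes were called for diet averaged over the sexes by limma, with a median of -0.02. At an unadjusted p under 0.05 there was 1, lower on 25% maize, against 16.9% of all genes in either direction. By sex, 7 were lower and 3 higher in females (median -0.13), against 31.9% and 38.2% of all genes. Of 85 genes of the respiratory chain and ATP synthase, 1 was called, the cytochrome c gene cycsb, which fell by 0.94 on 25% maize (SE 0.18, adjusted p = 0.0159), and the median was 0.017. By sex 20 of the 85 were lower and 14 higher in females, where 31.9% and 38.2% of all genes were. The median sex difference of the 85 was -0.056, against -0.57 for the 10 oxidation genes. The diet differences of these 85 were mostly positive in females (67, median 0.12, 1 called lower) and mostly negative in males (26 positive, median -0.11). Of the 17 cycle genes, 11 were positive in females (median 0.058, 1 called higher and 1 lower) and 6 in males (median -0.17). For the 10 oxidation genes these medians were 0.26 and 0.008. Of all genes, 47.4% were positive in females and 49.7% in males. The cycle and chain lists both hold sdha, sdhb, sdhc and sdhdb and have the same lowest female difference (-0.81), so their counts are not separate.

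**Figure D5:**
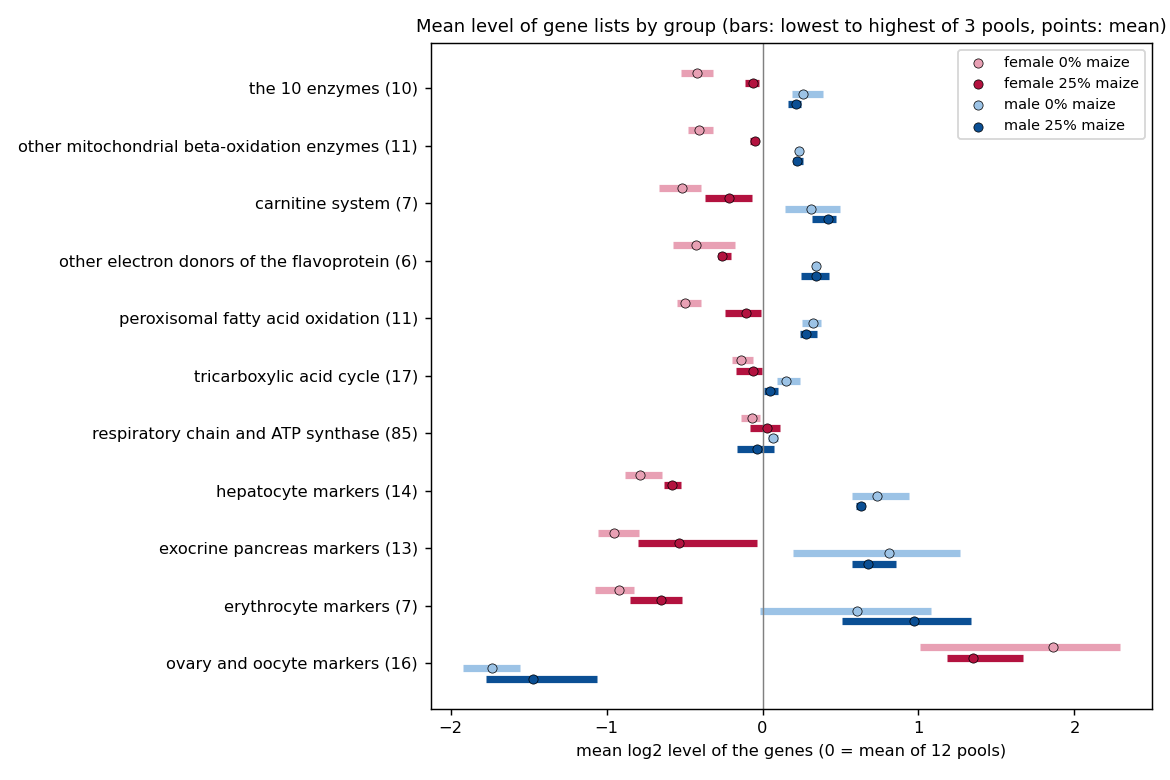
Mean log2 level (horizontal axis, 0 is the mean of the 12 pools) of the 10 genes and of neighbouring pathways and marker lists in each sex and diet, with the number of measured genes in brackets. Points are means of 3 pools and bars run from the lowest to the highest pool. The 10 genes and the 11 other mitochondrial enzymes show females on 0% maize lowest, females on 25% maize next and males of both diets together on top. By group means, females on 0% maize are also lowest and females on 25% maize next in the other lists drawn, among them the hepatocyte, exocrine pancreas and erythrocyte markers. The exceptions are the respiratory chain and ATP synthase and the ovary and oocyte markers.

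Without acsl1b, the levels of the 9 genes were positively correlated across the 12 pools in all 36 pairs, with r from 0.48 to 0.95 and a median of 0.79. After the mean of each sex was removed, the median was 0.51. Levels of acsl1b correlated with those of the other 9 from -0.50 to 0.013, with a median of -0.39. These values describe 12 pools that share arrays, sex and diet. The genes outside the 10 whose levels were most like the mean of the 10, by Pearson's r over 12 pools, were aldh8a1 (0.98), dhrs1 (0.98), pygl (0.98), sult3st4 (0.98) and zgc:162396 (0.98). Their r after removing sex means was 0.91 to 0.93, and 257 of 6674 other genes (3.85%) had an r over 0.9, so that many genes shared this pattern.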

How the data were processed

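The arrays were scanned and quantified with GenePix Pro, and the authors deposited 1 log ratio per probe and array, made with limma and read here as log2. The sources used here state no background correction, normalization, log base, direction or rule by which 12275 probes were kept. Of the probes, 10307 had 1 symbol, 1968 had none, and names were updated through a RefSeq table by accession (9007), current symbol (976) or synonym (317), with 7 kept. A gene is the mean of its probes. Ratios were fitted with limma 3.58.1 (R 4.3.3) with terms for the 4 groups and the dye, after whitening for shared pools, whose variance was 3.59 times the array error. The fit was run on simulated data with the same diet effect in both sexes, where the calls checked were those for diet averaged over the sexes. Calls for 1 sex, for 1 diet or for the sex difference were not checked in this way. The number of arrays limits the precision.

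The 10 members, the 22 gene lists and the tests were chosen with earlier results of these data known. All 10 genes are described. From each other list up to 4 genes past the threshold for diet or sex averages, with the smallest p, were to be named. So were the 5 genes most like the mean of the 10. Not all of those from the lists were named, and g0s2, oxct1b, acat1, suclg2 and atp5pf are among those left out. Other neighbours (acsl1a, slc25a20, eci1, slc25a32b, acsl4a, acadsb, cratb, acad11, cpt1b) were named after their values were seen. The methods give 4 replicates per diet, the labels 12 pools. Same-numbered pools of 1 sex deviated together with r of 0.21, 0.27, 0.18 and -0.12, so the number was not taken as a pairing. Sequences and coordinates are not used here, as no genome build is named for the array. Marker lists of muscle, adipocytes (1 gene) and endocrine pancreas had no gene called for diet. By sex, 1 of 4, 0 of 1 and 4 of 5 of them were lower in females, and all 6 vitellogenins were higher.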

Additional observations from a re-analysis of the deposited data

How the results depend on the processing

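Under 23 alternatives, 1400 of 1610 values of the 10 genes kept direction and call, 111 lost a call, 26 gained 1 and 73 changed sign, 38 of these by less than 1 SE. Most of the values were not called in the main fit and had no call to lose. Of the lost calls, 42 were for diet averaged over the sexes, with 4 genes called in the main fit. Another 19 were for diet in females, with 2 genes called. For diet averaged over the sexes, the count of called genes was 4. The share of all genes called in either direction was 4.56%, and later shares are of the same kind. The count became 1 at an adjusted p under 0.01 (1.42%) and 0 with arrays scaled to 1 spread (0%). It was 1 without either 1-sex array (2.47%), an alternative chosen after seeing the data, and 0 to 4 with a pool left out (1.17% to 7.41%). With the replicate number as a block it was 2 (2.32% of all genes), and for females 0 in place of 2 (1 of all 6684 genes). The female count was 2 in the main fit (1.33% of all genes), 0 at 0.01 (0%), 4 at 0.1 (3.43%) and 4 with scaling (9.35%). It was 0 without the array of 2 female pools (0.0299%) and 1 without that of 2 male pools (0.269%). With a pool left out it was 0 to 3 (0% to 5.64%). Scaling, which divides the 1-sex arrays by 0.629 and 0.434 and the others by 0.778 to 1.73 and so enlarges the former, called 1 gene in males (21.9% of all genes), 4 for the difference between the sexes (23.2%) and 0 for sex on 25% maize (22.2%). For sex on 0% maize the count was 8 in the main fit (57.2% of all genes), and 5 without the male array (23%). With a pool left out it was 3 to 8 (15% to 64.6%). For sex on 25% maize it was 3 in the main fit (40.9%), 1 at 0.01 (20.5%) and 6 at 0.1 (51%). It was 1 with arrays taken as independent (24.1%). By the probe of each gene with the smallest p it was 5. That count favours genes with several probes, and no share of all genes was counted for it. Without the female array (8.18%) or the male array (7.88%) it was 0, and with a pool left out 0 to 5 (3.22% to 49.4%).

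None of the values that changed sign was called before or after. For diet averaged over the sexes, acadm was 0.13 by the probe with the smallest p, and -0.088 to 0.12 with a pool left out. For diet in males, scaling gave -0.19 for cpt2, -0.18 for acadl, -0.19 for acaa2 and -0.27 for etfa. Independent arrays gave -0.012 for acaa2, -0.040 for acadl and -0.12 for etfa, the replicate block -0.028 for acadl and -0.047 for etfa, the fit with no dye term -0.0057 for acadl and -0.065 for etfa, and the median of the probes -0.068 for etfa. Without the male array, hadh was -0.042, acaa2 -0.0089 and etfb 0.14, and without the female array etfdh was 0.12, cpt2 -0.036, acadl -0.017 and etfa -0.075. With a pool left out the male values ran from -0.072 to 0.27 for cpt2, -0.071 to 0.082 for acadl, -0.044 to 0.26 for hadh, -0.019 to 0.14 for acaa2, -0.16 to 0.12 for etfa, -0.24 to 0.16 for etfb and -0.59 to 0.082 for etfdh. For the difference between the sexes, hadhb was 0.15 with independent arrays, 0.18 with scaling, 0.18 without the female array, 0.056 with the replicate block and 0.059 with no dye term, and etfb was -0.046 without the male array, and with a pool left out they ran from -0.20 to 0.23 and from -0.13 to 0.68. For sex on 0% maize, acsl1b was -0.23 with scaling, -0.093 with the replicate block, -0.021 without the female array and -0.031 to 0.12 with a pool left out. For sex on 25% maize, scaling gave 0.10 for acaa2 and 0.38 for etfdh, hadh was 0.027 and etfdh 0.11 without the male array, and with a pool left out they ran from -0.30 to 0.027 and from -0.59 to 0.12. The cause was not tested, except that scaling enlarges the 1-sex arrays by construction.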
